A study of Mus musculus with 6 samples.

Results

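Mouse ear skin was sequenced 1 day after topical imiquimod, a Toll-like receptor agonist that induces psoriasis-like inflammation, and the genes of the major histocompatibility complex (MHC) class II presentation route are described here. The 9 genes were taken by symbol out of 23518 in the deposited table: the class II chain genes H2-Aa, H2-Ab1 and H2-Eb1, the invariant chain gene Cd74, the protease gene Ctss, the peptide-loading genes H2-DMa, H2-DMb1 and H2-Oa, and the transcriptional regulator gene Ciita. Samples were 3 HdR ears and 3 wild-type (WT) ears. HdR, read from the design text, marks mice whose HOIL1 lacks its RING1 domain. HOIL1 is encoded by Rbck1 and belongs to the linear ubiquitin chain assembly complex. Each ear received 10 mg of cream with 5% imiquimod, so no untreated skin enters the comparison. The labels name neither strain, sex and age nor the cells that carry the deletion, and do not say whether replicates were separate animals, so p-values measure the spread between these samples, which may be technical. The libraries held 4433 to 5264 Mb of aligned sequence in HdR and 5038 to 5966 Mb in WT. Rbck1 coverage was 23.9, 13.0 and 19.7 bases per Mb in HdR and 66.6, 55.1 and 64.1 in WT, although a sum over the gene cannot show the deletion itself.

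MHC class II molecules are dimers of an alpha and a beta chain that carry peptides from endosomes to the surface of dendritic cells, Langerhans cells, macrophages and B cells, where CD4 T cells read them. In mice the I-A molecule is made from H2-Aa and H2-Ab1, and the I-E beta chain from H2-Eb1. New dimers are held by the invariant chain, CD74, which cathepsin S, the product of Ctss, trims to a short fragment. H2-DM, the dimer of H2-DMa with H2-DMb1 or H2-DMb2 products, exchanges this fragment for peptide, and H2-O, from H2-Oa and H2-Ob, restrains H2-DM. Transcription depends on CIITA, a co-activator that binds no DNA itself but docks on RFX, CREB and NF-Y factors assembled on the X and Y boxes ahead of class II genes. Interferon gamma induces Ciita in many cell types.

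Stretches that match the letters of the X and Y boxes are shown because the genes ahead of which they lie are the ones compared. Binding to them was not measured. RefSeq promoter windows on GRCm38.p6, from 250 bases before to 50 after a gene's start, were present for 6 of the 9 genes. Capitals mark a core of the X box, GNAAC, and the Y box, TGATTGG, on the coding strand with 20 to 30 bases between them, a pattern chosen after reading these windows.
H2-Aa, chr17:34287857-34287914, minus strand: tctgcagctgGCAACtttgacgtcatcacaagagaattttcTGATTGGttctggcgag
H2-Eb1, chr17:34305766-34305822, plus strand: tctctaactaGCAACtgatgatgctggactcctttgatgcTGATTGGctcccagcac
H2-DMb1, chr17:34153087-34153144, plus strand: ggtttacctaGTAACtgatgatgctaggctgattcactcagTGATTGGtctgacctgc
H2-Oa, chr17:34092293-34092350, plus strand: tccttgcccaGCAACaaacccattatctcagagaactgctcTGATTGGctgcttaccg
On either strand the paired pattern occurred in 106 of 32851 windows (0.323%), TGATTGG alone in 7.82% and GNAAC alone in 84.8%. Neither window of H2-DMa held TGATTGG, and these letters being absent there says nothing about the factors. Ctss had no TGATTGG either, and its window held the core of an interferon-stimulated response element, GAAA followed by GAAA with 2 free bases between, which 3.44% of windows held on either strand (chr3:95526750-95526789, plus strand, capitals on the core).
Ctss: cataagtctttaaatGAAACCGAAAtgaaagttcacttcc

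Coverage of the class II chain and H2-DM genes was higher in HdR skin, by 1.90- to 2.33-fold in means, while Cd74, Ctss and Ciita did not pass the test. Each level is a gene's share of the aligned bases of its library, as bases per Mb after scaling between libraries. Log2 changes, with HdR over WT, had 1 base per Mb added to each value, so those of low genes are too small. Of the 9 genes, 8 were tested, all but H2-Oa, since testing required 1 base per Mb or more in 3 or more libraries. Among these, 5 rose and 0 fell (0 also at an unadjusted p under 0.05) at a limma adjusted p under 0.05, against 12.7% of all 15049 genes tested that rose and 17.9% that fell (30.6% in either direction). H2-Aa, H2-Ab1, H2-Eb1, H2-DMa and H2-DMb1 were the 5, and their values in HdR lay above those in WT without overlap, as did 20.9% of all genes tested; 51.5% separated in either direction. With the replicate number as a block 6 rose, Ctss in addition, against 18.3% of all genes (45.5% called in either direction). The median change of the 8 was 0.95, against -0.13 over all genes tested. With median-of-ratios, total or quantile scaling the same 5 rose.

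**Figure D1:**
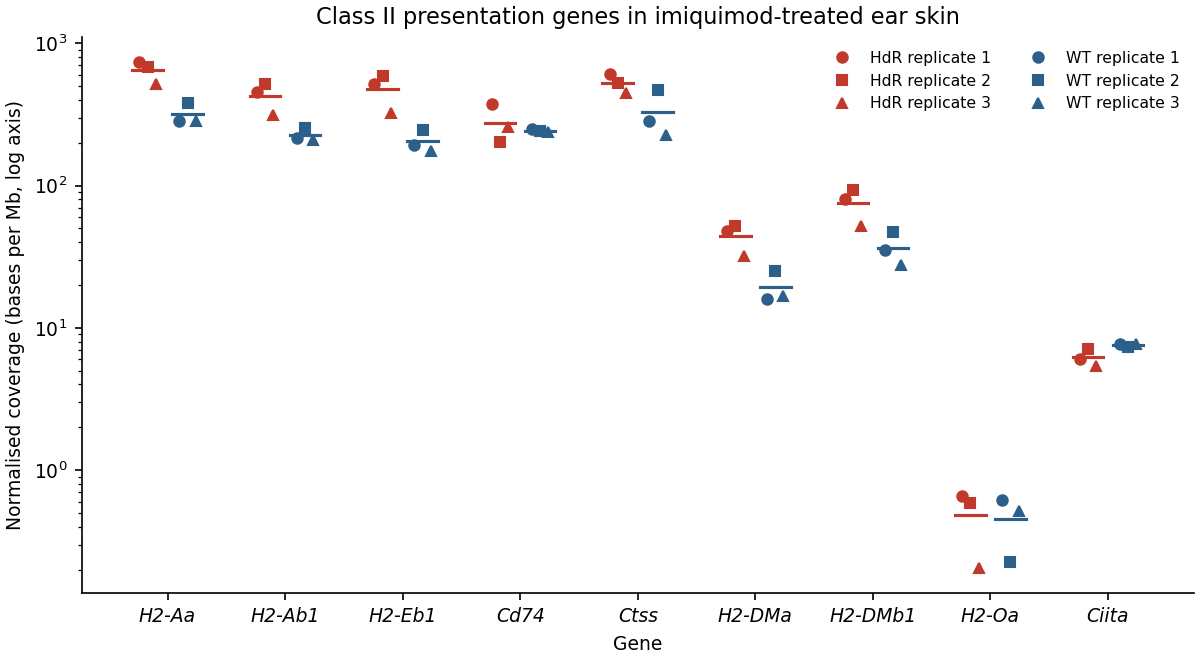
Normalised coverage of the 9 genes in each library (bases per Mb, log axis), with HdR in red left of WT in blue, symbols for replicates and bars for means of 3 libraries. The HdR points of H2-Aa, H2-Ab1, H2-Eb1, H2-DMa and H2-DMb1 all lie above the WT points, while those of Cd74, Ctss and H2-Oa overlap with WT and those of Ciita lie below.

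Both genes of the I-A molecule rose. H2-Aa (ENSMUSG00000036594.15, chromosome 17, 34282744 to 34287823, minus strand of GRCm38) stood at 737, 684 and 519 in HdR replicates 1 to 3 and at 286, 379.8 and 283 in WT replicates 1 to 3. All HdR libraries were higher than all WT libraries, and H2-Aa rose (log2 change 1.03, SE 0.21, limma adjusted p = 0.0140). H2-Ab1 (ENSMUSG00000073421.6, chromosome 17, 34257689 to 34269419, plus strand), the partner beta chain gene, read 454, 513 and 315 in HdR and 215, 252 and 207 in WT. It rose too, with HdR replicate 3 the lowest of its group and nearest to WT (log2 change 0.90, SE 0.21, limma adjusted p = 0.0194).

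H2-Eb1 (ENSMUSG00000060586.11, chromosome 17, 34305867 to 34316674, plus strand) had the largest change of the 8 tested genes. Its coverage was 519.6, 585 and 323 in HdR and 194, 246 and 174 in WT, and it rose (log2 change 1.19, SE 0.25, limma adjusted p = 0.0146). The I-E alpha chain gene, annotated as H2-Ea-ps, is silent in mouse strains with a deletion in its promoter. It was listed at 0.123, 1.04 and 0.151 in HdR and 0, 0.153 and 0 in WT, which amounts to at most 12.2 read pairs of 300 bases in a library, and it did not pass the filter.

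The genes of the peptide exchanger H2-DM followed the chains. H2-DMa (ENSMUSG00000037649.10, chromosome 17, 34119541 to 34139101, plus strand) stood at 48.3, 52.3 and 32.0 in HdR and 15.8, 25.2 and 16.6 in WT, and rose (log2 change 1.16, SE 0.24, limma adjusted p = 0.0143). H2-DMb1 (ENSMUSG00000079547.4, chromosome 17, 34153072 to 34160230, plus strand) stood at 79.9, 93.1 and 52.2 in HdR and 35.1, 47.2 and 27.7 in WT, and rose (log2 change 1.01, SE 0.26, limma adjusted p = 0.0233). In H2-DMb1 the gap between HdR replicate 3 and WT replicate 2 was small beside the spread within either genotype. H2-DMb1 and its neighbour H2-DMb2 are near copies: 27.2% of the 50-base windows of the H2-DMb1 transcript, and 5.74% of its 150-base windows, occur unchanged in H2-DMb2, so part of their reads could have been assigned to either. The gene interval of H2-DMa overlaps Brd2 on the other strand, and without a stated strand reads from shared positions cannot be told apart.

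The gene of the restraining subunit was barely read. H2-Oa (ENSMUSG00000024334.9, chromosome 17, 34092340 to 34095234, plus strand) was read at 0.656, 0.592 and 0.207 in HdR and 0.612, 0.226 and 0.516 in WT, equal to 3 to 12.2 read pairs in a library, and the genotypes overlapped. No difference was detectable at this depth. BC051537 lies antisense to it. H2-Ob, its partner beta chain gene, stood at 3.04, 2.02 and 1.72 in HdR and 0.857, 1.17 and 0.849 in WT and rose (log2 change 0.72, limma adjusted p = 0.0313). H2-DMb2 stood at 11.0, 13.5 and 6.09 in HdR and 3.07, 5.93 and 3.62 in WT and rose as well (log2 change 1.08, limma adjusted p = 0.0308). H2-Eb2, a second E beta gene, missed the threshold (log2 change 0.43, limma adjusted p = 0.240). Of the 4 further class II genes of the H2 region among the deposited genes, 3 were tested and 2 rose, against 12.7% of all genes tested. H2-Ob was tested only because of its level in HdR, since WT replicates 1 and 3 were under 1 base per Mb. Its call is therefore no independent support. With no filter this list had 0 calls. With scaling to total bases H2-Ob did not pass (limma adjusted p = 0.0676) and H2-DMb2 narrowly missed the threshold. Neither passed without HdR replicate 1, HdR replicate 2, WT replicate 1 or WT replicate 3.

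The gene of the invariant chain did not pass the test, unlike those of the chains that its product accompanies. Cd74 (ENSMUSG00000024610.15, chromosome 18, 60803848 to 60812652, plus strand) stood at 371, 203 and 257 in HdR and at 248, 243 and 239 in WT. The WT libraries lay close together, and the HdR libraries lay on both sides of them, replicate 1 above and replicate 2 below. The change did not pass (log2 change 0.14, 95% confidence interval -0.37 to 0.65, limma adjusted p = 0.644), and its sign was negative with total scaling (-0.18) and quantile scaling (-0.08). The interval leaves out the point estimate of every called class II gene but not an increase of up to 0.65. The 95% confidence intervals of those genes overlap with it, as with 0.42 to 1.38 for H2-Ab1 and 0.62 to 1.75 for H2-Eb1. Within a library, Cd74 coverage was 0.504, 0.296 and 0.495 times that of H2-Aa in HdR replicates 1 to 3 and 0.869, 0.640 and 0.845 times in WT replicates 1 to 3. This ratio does not depend on scaling between libraries, and the HdR values were all below the WT values (log2 difference -0.89, exact two-sided permutation p = 0.1, the smallest that 3 against 3 samples allow, 0.467 with Benjamini-Hochberg adjustment over 14 ratios). The difference ran from -1.03 to -0.64 with 1 library left out.

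The genes of cathepsin S and CIITA did not pass either. Ctss (ENSMUSG00000038642.10, chromosome 3, 95526786 to 95556403, plus strand) stood at 606, 522 and 448 in HdR and 286, 472 and 226 in WT. WT replicate 2 reached into the HdR range, and the change did not pass (log2 change 0.74, 95% confidence interval 0.12 to 1.36, limma adjusted p = 0.0677). With the replicate number as a block it passed (limma adjusted p = 0.0167), and likewise without WT replicate 2 (limma adjusted p = 0.00623). Ciita (ENSMUSG00000022504.10, chromosome 16, 10480059 to 10528418, plus strand) was low, at 6.08, 7.14 and 5.42 in HdR and 7.70, 7.36 and 7.69 in WT. Every HdR library lay below every WT library, which held for 30.7% of all genes tested, but the change did not pass (log2 change -0.26, 95% confidence interval -0.66 to 0.14, limma adjusted p = 0.280). Ciita overlaps Dexi on the other strand and is transcribed from several promoters that differ between cell types, and a sum over the gene cannot separate them. Relative to H2-Aa, Ciita was lower in HdR in all libraries (log2 difference -1.33, exact two-sided permutation p = 0.1), a ratio of transcripts of very unequal length.

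**Figure D2:**
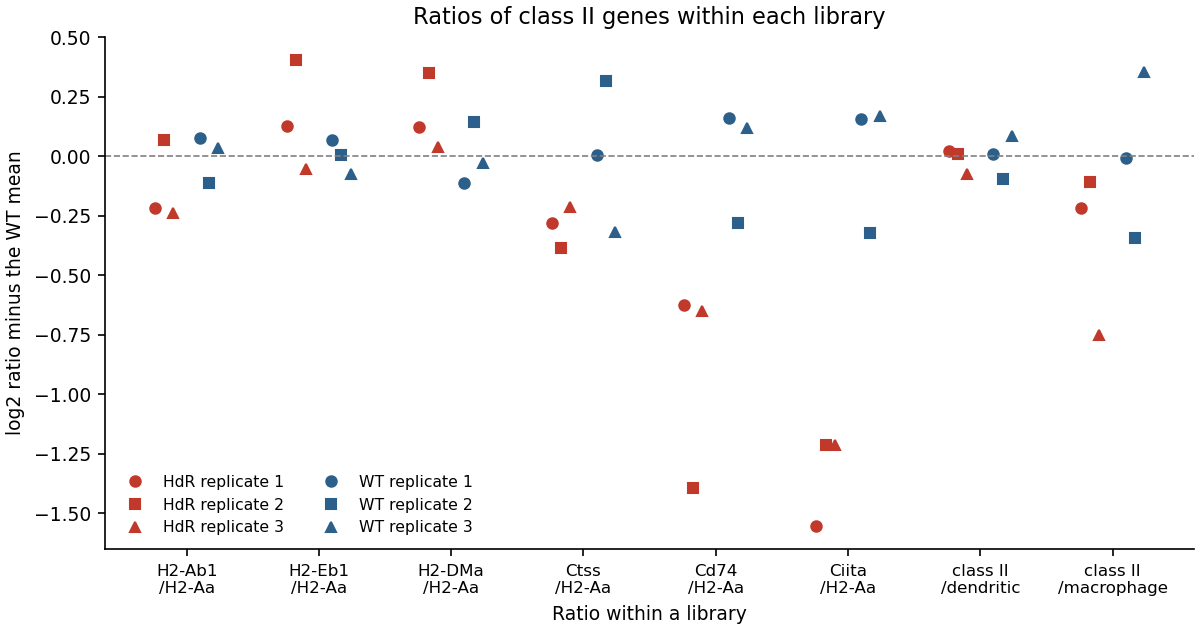
Ratios of coverage within each library on a log2 scale, less the mean of the WT libraries, with HdR in red left of WT in blue. Class II stands for the sum of H2-Aa, H2-Ab1, H2-Eb1 and Cd74, and it is divided by the summed markers of dendritic and Langerhans cells or of monocytes and macrophages. The ratios of Cd74 and Ciita to H2-Aa separate the genotypes, with differences of -0.89 and -1.33, and the others plotted overlap.

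The other ratios among class II presentation genes overlapped between the genotypes. H2-Ab1 coverage was 0.616, 0.7505 and 0.606 times that of H2-Aa in HdR and 0.755, 0.662 and 0.733 times in WT (log2 difference -0.13, exact permutation p = 0.3). H2-Eb1 over H2-Aa and H2-DMa over H2-Aa differed by 0.16 and 0.17 (exact permutation p = 0.4 and 0.3). Ctss over H2-Aa differed by -0.29 (exact permutation p = 0.3) and H2-DMb1 over H2-DMa by -0.17 (exact permutation p = 0.2). H2-Oa over H2-DMa differed by -1.14 on few reads (exact permutation p = 0.3). With 3 libraries a genotype, none of these tests could reach a p under 0.1.

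Per kb of transcript, using the longest transcript in the consensus coding set, H2-Aa had the highest mean level in both genotypes, at 573 ± 101 bases per Mb per kb in HdR and 280.2 ± 48.9 in WT (SD, n = 3 each). In WT replicate 2 Ctss stood higher (348 against 337), and the rank of H2-Aa rests on a length of 1128 nt, where its longest transcript has 3223 nt. Ctss and H2-Ab1 came next, at 388 ± 58.5 and 353 ± 84.1 in HdR and 242 ± 94.6 and 185 ± 19.4 in WT, with ranges that overlapped in each genotype. H2-Eb1 and Cd74 changed places. The level of H2-Eb1 per kb was 311, 350.2 and 193 in HdR, above 263, 144 and 182 for Cd74 in each library, and 116, 147 and 104 in WT, below 176, 173 and 169.6 for Cd74 in each library. H2-DMb1 and H2-DMa followed at 53.5 ± 14.9 and 26.7 ± 6.49 in HdR and 26.1 ± 7.02 and 11.6 ± 3.13 in WT. Ciita, at 1.03 ± 0.145 in HdR and 1.26 ± 0.0326 in WT, and H2-Oa, at 0.446 ± 0.223 in HdR and 0.415 ± 0.185 in WT, were the lowest.

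Most of the genes had the same lowest HdR and highest WT library. HdR replicate 3 was the lowest HdR library in 8 of the 9 genes, the exception being Cd74, and WT replicate 2 was the highest WT library in 6. The share of all genes with this order was not computed, and the order of H2-Oa rests on 3 to 12.2 read pairs. Whether the length trend described below underlies the order was not tested. Calls moved with the libraries kept. Without WT replicate 1 none of the 5 genes passed (limma adjusted p = 0.0660 to 0.0840), against 427 genes called in all. Without HdR replicate 1, HdR replicate 2 or WT replicate 3, H2-Aa, H2-Eb1 and H2-DMa passed and H2-Ab1 and H2-DMb1 did not (limma adjusted p = 0.0533 to 0.0770). Log2 changes of the 5 stayed between 0.75 and 1.44 throughout these removals.

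Transcript length moved with genotype across all genes, and the class II genes other than Ciita are short. Slopes of log2 coverage on log2 transcript length, relative to each gene's mean over libraries, were -0.129, -0.278 and -0.0838 per doubling in HdR and 0.196, 0.0413 and 0.254 in WT. The 1786 tested genes with transcripts of 1088 to 1669 nt, the range of the 8 members other than Ciita, had a median change of 0.35, and 27.4% of them rose and 3.81% fell. Around Ciita, at 5500 to 6500 nt, the median of 830 genes was -0.49. With a smooth trend on length removed from each library, H2-Eb1 (log2 change 0.86, limma adjusted p = 0.0263) and H2-DMa (0.83, limma adjusted p = 0.0277) rose, 2 of 8, against 7.1% of all genes in that fit. Neither passed in that fit without HdR replicate 1, HdR replicate 2, WT replicate 1 or WT replicate 3 (limma adjusted p = 0.0695 to 0.123), although their log2 changes stayed between 0.72 and 1.07. H2-Aa (0.48, 95% confidence interval 0.12 to 0.84, limma adjusted p = 0.0655), H2-Ab1 (0.39, limma adjusted p = 0.102) and H2-DMb1 (0.57, limma adjusted p = 0.0676) no longer passed. The value of H2-Aa depends on the transcript taken for its length: with its longest of any kind, 3223 nt, in place of 1128 nt, H2-Aa rose (1.09, limma adjusted p = 0.0138). With the trend removed and the replicate block in the fit, H2-Aa and H2-DMb1 passed as well. Without the block, Cd74 stood at -0.29 (-0.87 to 0.29), Ctss at 0.28 and Ciita at 0.11 with the trend removed, none of them passing. Cd74 is close in length to H2-DMb1 and Ctss, at 1410 nt against 1404 and 1355. Genotype and the length trend cannot be told apart in these libraries.

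**Figure D3:**
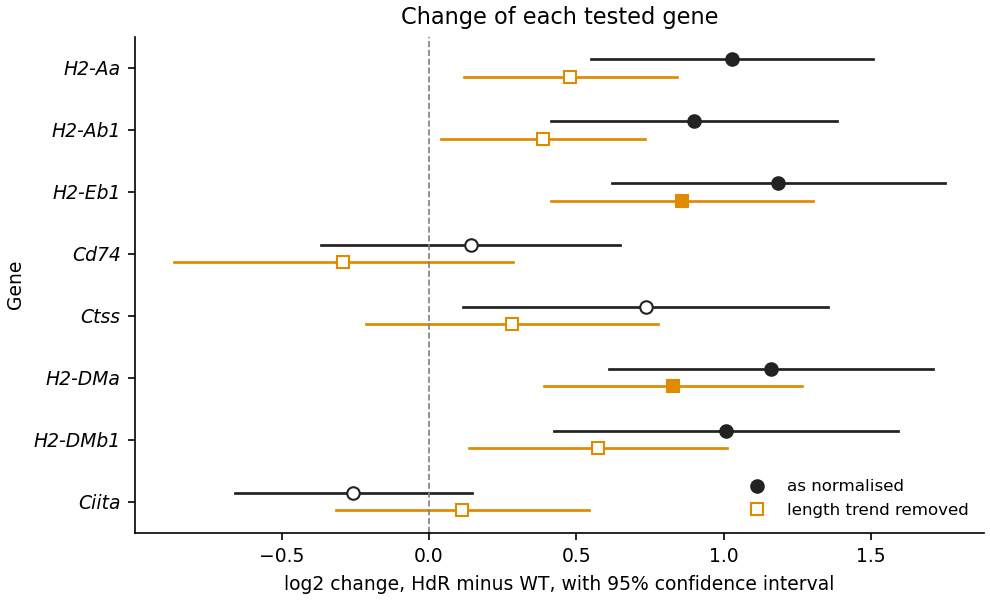
Log2 change of each tested gene, HdR minus WT, with its 95% confidence interval from limma, as normalised (black circles) and with the length trend removed (orange squares). Filled symbols have a limma adjusted p under 0.05: 5 genes as normalised, and H2-Eb1 and H2-DMa with the trend removed.

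**Figure D4:**
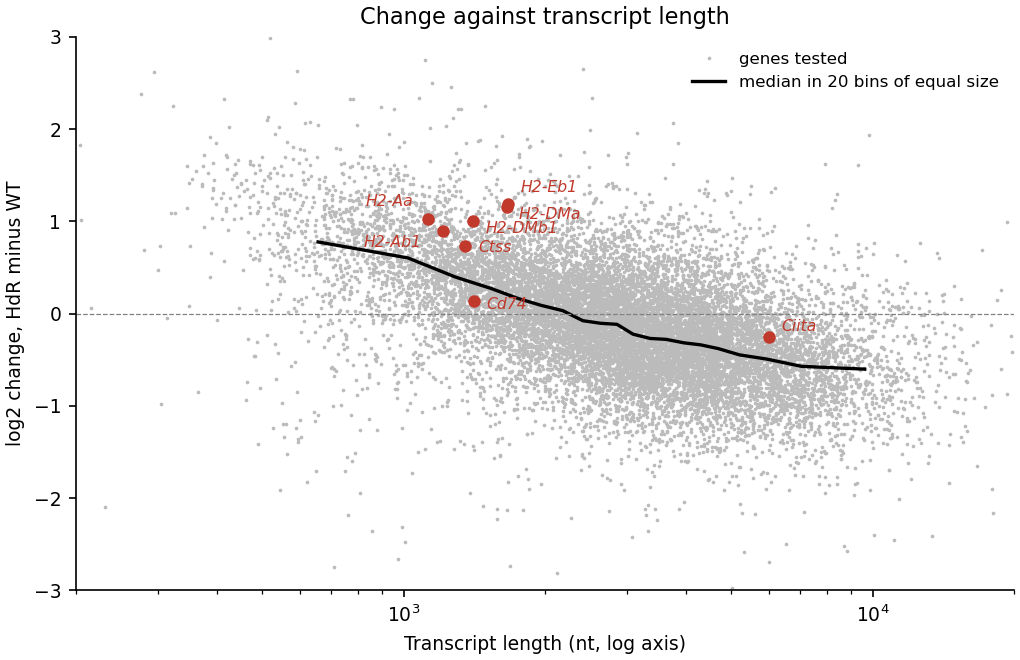
Log2 change of all tested genes, HdR minus WT, against transcript length in nt on a log axis, with the running median in black and the class II genes in red; changes beyond 3 in size are outside the plot. H2-Eb1 and H2-DMa lie farthest above the median at their length, and Cd74 lies below it.

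Of 10 genes for the RFX, CREB and NF-Y factors and their co-activators, 9 had a negative log2 change in HdR skin (median -0.57). In limma 0 rose (1, Rfxank, at an unadjusted p under 0.05) and 3 fell: Rfx5, the DNA-binding RFX subunit (log2 change -0.87, limma adjusted p = 0.0236), Nfyc, an NF-Y subunit (-0.78, limma adjusted p = 0.0389), and Kat2b, the gene of an acetyltransferase (-0.77, limma adjusted p = 0.0130). This share of calls is near the 30.6% over all genes. Rfx5 read 9.16, 5.40 and 9.30 bases per Mb in HdR and 16.4, 13.4 and 15.3 in WT, without overlap. Creb1 missed the threshold (-0.61, limma adjusted p = 0.0622) except with the replicate block (limma adjusted p = 0.0276), with which Rfxank rose (limma adjusted p = 0.0164) and 5 genes fell. Most of these genes have longer transcripts than the class II genes other than Ciita, with 4333 nt for Rfx5 and 2006 nt for Nfyc. With the length trend removed 2 fell, Nfyc and Kat2b, and Rfx5 did not pass (limma adjusted p = 0.0544). The median of the list was then -0.37. Without WT replicate 1 the list had 0 calls, without WT replicate 3 it had 1 and without WT replicate 2 it had 7, and with total scaling 7.

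In the interferon gamma arm that induces Ciita, Ifng itself was near the floor, at 1.08, 0.448 and 0.282 in HdR and 0.206, 1.05 and 0.200 in WT, and was not tested. The receptor chain genes rose: Ifngr1 stood at 127, 132 and 139.6 in HdR and 72.6, 78.2 and 76.0 in WT (log2 change 0.80, limma adjusted p = 0.00979), and Ifngr2 at 109, 123 and 90.8 in HdR and 60.9, 80.1 and 47.9 in WT (0.79, limma adjusted p = 0.0273). The kinase gene Jak1, whose product acts at this receptor, stood at 99.5, 66.3 and 93.4 in HdR and 145, 124 and 145 in WT and fell (-0.69, limma adjusted p = 0.0282). Ifngr1 and Ifngr2 did not pass with total scaling (limma adjusted p = 0.0511 and 0.0745), and Jak1 did not once the length trend was taken out (limma adjusted p = 0.0959). Of the 11 genes tested 2 rose and 2 fell, a share near the 30.6% called over all genes, with a median of -0.05. Calls numbered 1 without WT replicate 1, 2 without WT replicate 3 and 2 without HdR replicate 2.

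Among the endosomal enzymes that process antigen, most did not pass. Ctse, which encodes cathepsin E, an aspartic protease of endosomes in antigen-presenting cells and of some epithelia, fell to 0.403, 0.539 and 0.252 in HdR, against 8.01, 8.43 and 10.0 in WT (log2 change -2.81, limma adjusted p = 3.34e-04). All HdR values were under 1 base per Mb, so Ctse was tested only because of its level in WT. It also passed with no filter (limma adjusted p = 0.00496), but the log2 change of Ctse depends on the pseudocount, at -4.20 with 0.1 added. Ctsh, the gene of cathepsin H, rose (0.65, limma adjusted p = 0.0450), but not with total scaling (limma adjusted p = 0.126) or after removal of the length trend (0.30, limma adjusted p = 0.168). Cst3, the gene of the inhibitor cystatin C (0.73, limma adjusted p = 0.0546), and Ctsz (0.61, limma adjusted p = 0.0918) passed with the replicate block only (limma adjusted p = 0.00238 and 0.00711). Of 10 genes 1 rose and 1 fell (median 0.29), a smaller share than the 30.6% called over all genes, and 4 rose and 1 fell with the block. The count of calls was 1 without HdR replicate 1 or HdR replicate 2, 0 without WT replicate 1 or WT replicate 3 and 4 without WT replicate 2. Ctse was left untested where a WT library was removed, because too few libraries then passed the filter.

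Among genes for the turnover of class II and for co-stimulation, March1 encodes the ubiquitin ligase that removes class II from the surface of resting dendritic cells, and rose (log2 change 1.16, limma adjusted p = 0.0414) at 52.7, 62.6 and 38.4 in HdR and 18.9, 41.3 and 13.3 in WT, where WT replicate 2 overlapped with HdR. Its relative March8 (-0.81, limma adjusted p = 0.0372) and Cd274, the gene of the inhibitory ligand PD-L1 (-0.82, limma adjusted p = 0.0378), fell. The co-stimulatory ligand gene Cd86 missed the threshold (0.69, limma adjusted p = 0.0769) except with the replicate block (limma adjusted p = 0.00695). Of 10 genes 1 rose and 2 fell (median 0.19), and with the block 3 and 2, shares near the 30.6% and, with the block, 45.5% of all genes called. With the length trend removed only March1 passed, and March1 did not with total scaling (limma adjusted p = 0.0706). The count of calls was 1 without HdR replicate 1 or WT replicate 3 and 0 without HdR replicate 2 or WT replicate 1.

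Of the cell types that carry class II, some dendritic cell and macrophage markers rose in HdR skin, and no B cell marker passed. Bulk skin RNA cannot tell more cells of a type from more RNA per cell, or which cells the reads of a marker came from. The 12 dendritic and Langerhans cell markers summed to 292, 280.2 and 212 bases per Mb in HdR and to 133, 170.3 and 121 in WT, without overlap. Of these 12 genes 5 rose and 0 fell (0 also at an unadjusted p under 0.05; median 0.65): Clec10a (1.37, limma adjusted p = 0.00569), Cd209a (1.25, limma adjusted p = 0.0113), Mgl2 (0.97, limma adjusted p = 0.00660), the growth factor receptor gene Flt3 (0.84, limma adjusted p = 0.0174) and Cd207, the gene of langerin (0.64, limma adjusted p = 0.0419). Over all genes tested 12.7% rose and 17.9% fell. After removal of the length trend 4 of the 12 markers rose, all but Cd207, against 7.1% of all genes in that fit. Itgax (-0.20), Xcr1 (-0.09) and Clec9a (0.18), markers of conventional dendritic cells, did not pass and were between 1.25 and 6.59 in all libraries with overlapping genotypes. Zbtb46 (0.36), Batf3 (0.66), Ccr7 (0.68) and Ccl22 (0.41) did not pass either, and their genotypes overlapped too. The summed class II coverage was 7.13, 7.08 and 6.67 times the summed dendritic markers in HdR and 7.09, 6.58 and 7.46 times in WT, a log2 difference of -0.02 (exact permutation p = 0.9). With the mean of log2 marker levels in place of the sum it was 0.28, with the exact permutation p at its smallest value of 0.1, so whether class II changed relative to these markers depends on how they are summarised. The summed class II coverage is that of H2-Aa, H2-Ab1, H2-Eb1 and Cd74, here and in the ratios to other markers below. Cd74 did not pass (0.14), and a ratio of the chain genes alone to the markers was not computed. The part of these cells in the class II result was not tested. The list had 3 calls without HdR replicate 2 or WT replicate 3 and 2 without WT replicate 1.

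The 12 monocyte and macrophage markers summed to 2588, 2286 and 2541 in HdR and to 1013, 1522 and 755 in WT, most of it Lyz2. Of these 12 genes 6 rose and 0 fell (0 also at an unadjusted p under 0.05; median 0.68), among them Cd163, a scavenger receptor gene (1.43, limma adjusted p = 0.00465), Cd14 (1.08, limma adjusted p = 0.00800), Lyz2 (1.67, limma adjusted p = 0.0100) and Mrc1 (0.85, limma adjusted p = 0.0262). Over all genes tested 12.7% rose and 17.9% fell. Log2 changes were negative, without passing, for Ly6c2 (-0.44), Mertk (-0.34) and Fcgr1 (-0.11). After removal of the length trend 6 markers rose and 1 fell, Ly6c2, a marker of monocytes (-1.11, limma adjusted p = 0.0298). In that fit 7.1% of all genes rose and 10.8% fell. The list had 3 calls with total scaling or without HdR replicate 1 or WT replicate 3 and 2 without WT replicate 1. Class II over macrophage markers overlapped between the genotypes (log2 difference -0.36, exact permutation p = 0.4), and the sign turned with mean log2 levels (0.30, exact permutation p = 0.2). Among pan-leukocyte markers Tyrobp, an adaptor gene of myeloid and NK cells, rose (1.86, limma adjusted p = 0.0101). This call, 1 of 6 genes, is a share near the 12.7% of all genes tested that rose. Coro1a (0.73, limma adjusted p = 0.0777) and Cd53 (0.84, limma adjusted p = 0.119) passed with the replicate block only (limma adjusted p = 0.00300 and 0.0144), and Laptm5 did not pass (0.10). Calls in this list numbered 2 without HdR replicate 3 and 3 without WT replicate 2.

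Lymphocyte markers were few. Of the 8 B cell markers 5 were under 1 base per Mb in every library, Ms4a1 among them, and only Cd79b was tested (0.58, limma adjusted p = 0.241). The B cell sum was 5.93, 11.4 and 4.99 in HdR and 2.71, 5.33 and 3.19 in WT, and class II over B cell markers differed by -0.09 (exact permutation p = 1), or by 0.56 with mean log2 levels (exact permutation p = 0.1). Of 6 T and NK cell markers found among the deposited genes 3 were tested and 0 passed in limma (0 also at an unadjusted p under 0.05), Cd3d at 0.61 (limma adjusted p = 0.162, 0.0275 with the replicate block), Cd3g at 0.42 and Cd3e at 0.02. Without WT replicate 2, 2 of them passed. Class II over T and NK cell markers differed by 0.43 (exact permutation p = 0.2) and over pan-leukocyte markers by 0.07 (exact permutation p = 0.8). Keratinocyte markers were high in all libraries, in keeping with the skin label, with a sum of 7785 to 9371 in HdR and 10472 to 12464 in WT. Krt1 (-1.03, limma adjusted p = 0.0435) and Krt14 (-0.71, limma adjusted p = 0.0487) fell, Krt5 (-0.40) and Trp63 (0.14) did not pass, and 0 passed with median-of-ratios scaling. The 2 of 6 keratinocyte markers that fell stand against 17.9% of all genes tested. After removal of the length trend Krt1 and Krt14 fell and Trp63, a gene of basal keratinocytes, rose (0.48, limma adjusted p = 0.0485). Of these 6 genes 1 passed without HdR replicate 1 and 0 without any other single library. Class II over keratinocyte markers was 0.222, 0.221 and 0.182 in HdR and 0.0900, 0.0899 and 0.0767 in WT (log2 difference 1.28, exact permutation p = 0.1).

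**Figure D5:**
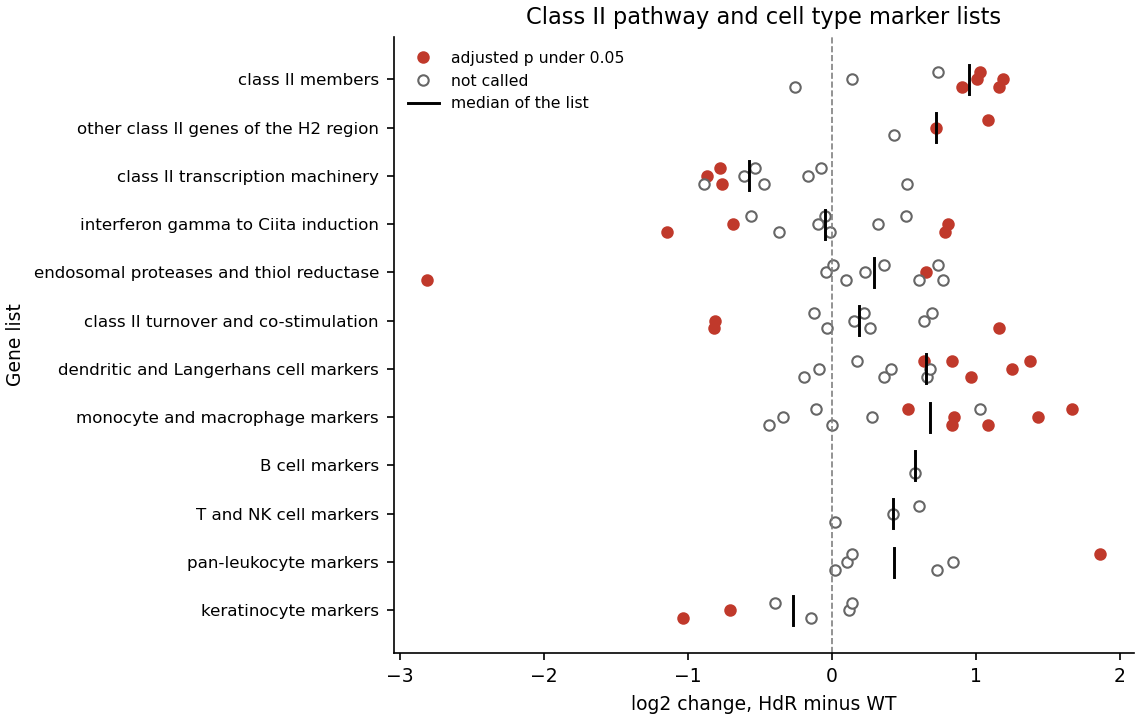
Log2 change of each tested gene, HdR minus WT, by list, with genes at a limma adjusted p under 0.05 in red, others open, and a bar at the median of the list. Class II genes, dendritic cell and macrophage markers lie mostly to the right, and the class II transcription machinery mostly to the left, with medians of 0.95, 0.65, 0.68 and -0.57. With the length trend removed, which is not plotted, these medians were 0.43, 0.40, 0.58 and -0.37.

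Genes whose levels followed the class II genes most closely were found over the 6 libraries. Log2 levels of 9924 genes with a mean of at least 10 bases per Mb were compared with the mean centred log2 level of H2-Aa, H2-Ab1, H2-Eb1 and Cd74. The 8 genes with the highest Pearson r were Dnal4, Fxyd5, Sh3bgrl3, Trem2, Polr2l, Exosc8, Clns1a and Akt1s1, with r from 0.991 to 0.997. Such values describe 6 libraries of 2 genotypes that also share the length trend. The sum of H2-Aa, H2-Ab1, H2-Eb1 and Cd74 already separated the genotypes in these libraries. The 8 genes were chosen from the same values, so the tests of them given below are no independent support. Of the 8, Trem2, a receptor gene of macrophages, read 16.8, 15.8 and 10.6 in HdR and 5.32, 7.03 and 4.61 in WT and rose (log2 change 1.20, limma adjusted p = 0.0125), and it did so too once the length trend was taken out (0.64, limma adjusted p = 0.0479). Changes of the others ran from 0.10 for Akt1s1 to 1.10 for Sh3bgrl3, and none of these 7 passed with the trend removed. Fxyd5, Sh3bgrl3, Polr2l and Exosc8 passed as normalised, and Dnal4 and Clns1a with the replicate block only (limma adjusted p = 0.0291 and 0.0385). Without WT replicate 1 none of the 8 genes passed (Trem2, limma adjusted p = 0.0557). H2-DMa ranked 42 (r = 0.979), H2-DMb1 125 (r = 0.962) and Ctss 1346 (r = 0.888) among the same genes.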

How the data were processed

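RNA of ear skin was sequenced on an Illumina instrument after NEBNext library preparation, per the labels' protocols. The deposited values are coverage, a signal: aligned bases summed per gene symbol, as the values themselves show, since 1656 of them equal 300, the bases of a read pair. The build was GRCm38 per the submitters' processing notes; aligner, gene annotation and strand setting are unstated there. Because the values were not taken as counts, no count test was run. Values were divided by total bases, scaled by a trimmed mean of log ratios (30% and 5% trimmed), filtered at 1 base per Mb in 3 libraries, and tested as log2(value + 1) with limma 3.58.1 in R 4.3.3 (trend, robust, two-sided, Benjamini-Hochberg, threshold 0.05), a procedure checked on simulated data. The simulated data had independent noise and no length trend, so that check does not cover the trend found in these libraries. Library depth was 4433 to 5966 Mb.

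Lengths came from GENCODE M21, which matched 98.2% of symbols; a spline with 4 degrees of freedom removed the length trend. Ratios were tested by exact permutation, smallest p 0.1. Same-numbered libraries deviated together (r = 0.163, 0.416 and 0.366). HdR replicate 3 and WT replicate 1 did so about as much as the first of these pairs (r = 0.159). HdR replicate 1 and WT replicate 3 had r = 0.0976, and the other differently numbered pairs were negative. The block on replicate number is treated as a pairing seen in the data, and calls made with it rest on that. Slopes on length were lowest in replicate 2 and highest in replicate 3 of both genotypes. Whether the length trend underlies the pairing was not tested. Members and lists were chosen with earlier results of these data known. Named genes were the 9 members, further class II genes of the region and the 8 most alike. In each list up to 4 genes with the smallest p were named, plus all called where 5 or fewer were. Outside these rules, Ifng, Rfxank, Itgax, Xcr1, Clec9a, Zbtb46, Batf3, Ccr7, Ccl22, Ly6c2, Mertk, Fcgr1 and Ms4a1 were chosen after their values were seen. Some list genes enter the counts but are not reported here by name. Alternatives covered scaling, filter, pseudocount, threshold, weights, block, length and single libraries.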

Additional observations from a re-analysis of the deposited data

How the results depend on the processing

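The number of class II members that rose was 5 with total, median-of-ratios and quantile scaling, and 4 with no filter. It was 2 with the length trend removed, 3 with the longest transcript of any kind as length (H2-Aa, H2-Eb1 and H2-DMa), 0 to 6 with 1 library left out and, with the length trend removed and 1 library left out, 0 without HdR replicate 1, HdR replicate 2, WT replicate 1 or WT replicate 3, 3 without HdR replicate 3 and 4 without WT replicate 2. The longest transcript of any kind, and the removal of a library together with the length trend, were chosen after seeing the data. With sample quality weights, whose estimation did not converge, 7 members were higher, 1 was lower and 9752 genes were called in all. That fit also called 9 transcription machinery genes, 7 of the interferon gamma list, 6 proteases and 6 turnover genes. Among markers the same fit called 1 of B cells, 2 of T and NK cells, 3 pan-leukocyte and 4 of keratinocytes. All genes called numbered 2670 with the length trend removed, 2893 with the longest transcript, 2144 with no filter and 427 to 6016 with 1 library left out.

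With the replicate block, that is with the pairing by number, calls numbered 6 in the transcription machinery, 5 in the proteases, 5 in turnover, 1 in T and NK cell and 3 in pan-leukocyte markers, and class II members that rose numbered 6; with the length trend also removed they were 5 in the machinery and 3 in pan-leukocyte markers. The block changed the calls of the genes named with it in the results and of no other named gene.

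Other class II genes of the region had 0 calls with total scaling, no filter or the longest transcript, 1 with the length trend removed or a filter at 5 bases per Mb, and 0 to 2 with 1 library left out. The machinery had 7 with total scaling, 1 with no filter, 8 at a threshold of 0.1 and 0 to 7 with 1 library left out. Proteases had 1 with total scaling, quantile normalisation, no filter, the length trend removed and the longest transcript, 4 at a threshold of 0.1 and 0 to 4 with 1 library left out. Turnover had 0 with no filter, 1 with either length correction and 0 to 4 with 1 library left out. The interferon gamma list had 2 with no filter and 1 to 6 with 1 library left out. Macrophage markers had 6 higher and 1 lower with the length trend removed, 3 with total scaling or no filter and 2 to 6 with 1 library left out, and dendritic markers 2 to 7. B cell markers had 1 with no filter, T and NK cell markers 0 to 2 and pan-leukocyte markers 1 to 3 with 1 library left out, and pan-leukocyte markers 2 at a threshold of 0.1. Keratinocyte markers had 4 with total scaling or quantile normalisation, 0 with median-of-ratios scaling or no filter, 1 with the longest transcript and 0 to 1 with 1 library left out.

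Signs turned for genes that had not passed. With the length trend removed, with or without the replicate block, log2 changes were -0.29 for Cd74, 0.11 for Ciita, -0.17 for Cd3g, -0.39 for Cd3e, -0.00453 for Clns1a and -0.19 for Akt1s1. With the longest transcript they were -0.32 for Cd74, 0.0922 for Ciita, -0.0753 for Cd3e and -0.0920 for Akt1s1. With total scaling they were -0.18 for Cd74, -0.22 for Cd3e, -0.21 for Laptm5, -0.18 for Trp63 and -0.21 for Akt1s1. With quantile normalisation they were -0.0807 for Cd74 and -0.0800 for Cst3, and with quality weights -0.0548 for Cd3e. With 1 library left out they ran from -0.0924 to 0.34 for Cd74, -0.22 to 0.21 for Cd3e and -0.0194 to 0.26 for Laptm5. With the length trend removed as well, Cd74 stood at -0.56, -0.00354 and -0.32 without HdR replicates 1 to 3 in turn and -0.26, -0.36 and -0.24 without WT replicates 1 to 3 in turn, and Ciita at 0.13, -0.0327 and 0.24 without HdR replicates 1 to 3 in turn and 0.11, 0.19 and 0.0820 without WT replicates 1 to 3 in turn. The log2 ratio of class II to markers ran from -0.31 to 0.20 for B cells, -0.0636 to 0.0271 for dendritic cells and -0.14 to 0.26 for leukocytes with 1 library left out, and with mean log2 marker levels it was 0.56 for B cells, 0.28 for dendritic cells and 0.30 for macrophages.
The cause of these shifts was not tested. Depth limited H2-Oa, Ifng, H2-Ea-ps and most lymphocyte markers, whose levels rest on few read pairs.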
